A study of Mus musculus with 12 samples.

Results

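The genes described here encode osteopontin and other proteins that bile duct epithelium secretes: Spp1, Clu, Wfdc2, Dmbt1, Pigr, Ambp and Lcn2. They were picked by gene symbol, 7 of the 54227 gene symbols in the table, and 6 of them reached the mean normalised count of 10 needed for a test, as did 16128 genes in all. Wfdc2 did not reach it and is described only by its values. The cells came from dissociated livers of C57Bl/6 mice that carried a Sox9EGFP transgene, whose fluorescence reports on Sox9, a transcription factor of the biliary epithelium; every library, the EGFP-negative ones included, came from mice with that transgene that had been fasted for 16 h. A cell sorter divided the cells by EGFP into a negative population (neg), one below low (sub), low and high, and 12000 cells of a population went into each library. There were 3 libraries for each population, 12 in all, made by a stranded total-RNA method for small inputs. The labels give no drug treatment, age or sex, no promoter for the transgene, and no statement of whether libraries of a population came from different mice, so p-values measure the spread between these libraries. Column names of libraries with the same replicate number share a tag across populations, whose meaning the labels do not state.

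Cholangiocytes, the cells that line bile ducts, modify bile and release proteins into it. Osteopontin is a secreted phosphoprotein that binds integrins and CD44, and clusterin is a chaperone that works outside cells. The polymeric immunoglobulin receptor carries dimeric IgA across epithelium into bile and mucus, while lipocalin 2 withholds iron from bacteria by binding their siderophores and DMBT1 is a scavenger receptor cysteine-rich glycoprotein that binds microbes. AMBP is a precursor that is cleaved into alpha-1-microglobulin and bikunin, and hepatocytes are its best known source. WFDC2 is a small secreted protein with domains of the protease inhibitor type.

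The promoters of Spp1 and Pigr are shown because these members had high levels in the same populations and because their windows, the 250 bases before the RefSeq start on GRCm38.p6, overlap no annotated exon. Capitals mark motif matches on either strand.
Spp1, chr5:104434861-104435110, plus strand: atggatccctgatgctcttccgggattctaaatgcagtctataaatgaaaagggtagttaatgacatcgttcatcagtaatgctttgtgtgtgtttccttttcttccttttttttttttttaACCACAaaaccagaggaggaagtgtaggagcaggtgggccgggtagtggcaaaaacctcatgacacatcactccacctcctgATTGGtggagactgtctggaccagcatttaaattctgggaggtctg
Pigr, chr1:130826434-130826683, plus strand: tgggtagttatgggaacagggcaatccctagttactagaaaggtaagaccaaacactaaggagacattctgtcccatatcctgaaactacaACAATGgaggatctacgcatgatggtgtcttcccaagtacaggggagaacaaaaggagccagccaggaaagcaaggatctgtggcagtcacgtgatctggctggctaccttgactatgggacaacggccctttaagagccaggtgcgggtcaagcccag
The Pigr window held the SOX-type letters ACAATG, 159 to 154 bases before the start, which 10.7% of 32851 promoter windows also hold on a strand. These letters were not found in the Spp1 window on either strand. The Spp1 window held the RUNX-type letters ACCACA, 128 to 123 bases before its start (14.0% of windows), and an inverted CCAAT box, ATTGG, 46 to 42 bases before it (33.8% of windows). Neither window held the letters GGAATG (TEAD-type, 12.6% of windows), TGANTCA (AP-1-type, 6.75%), TGTTTAC (forkhead-type, 3.17%) or TTCCNGGAA (STAT-type, 0.913%), nor the longer HNF1-type and NF-kB-type motifs (0.0609% and 1.41%). ACCACA and CCAAT were added to the search after the sequences had been read, and a match describes letters, not binding. RefSeq lists another Spp1 start, at position 104436192, whose window overlaps an annotated exon and held none of these motifs; it is not shown. Of the 7 members, 5 had a promoter in the RefSeq table.

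The values are normalised counts, which are reads divided by a scaling factor for each library, and a single read was worth 0.691 to 1.22 of them. Depth ranged from 8775387 to 15535588 reads per library. Sox9 had a mean of 0.23 in neg, against 4865 in sub, 12097 in low and 13087 in the high libraries. Zeros need care in these libraries: 4 of 15 housekeeping genes were listed at 0 in at least 1 library, and 11848 of the 16128 tested genes (73.5%) had, within some population, a library at 0 beside another above 100. Zeros in all 12 libraries were also more common among short genes. They were found for 72.7% of protein-coding genes under 1000 bases and for 12.5% of those of at least 4000 bases. A gene without reads is therefore called listed at 0, which is not read as absence.

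Summed, the members were found almost wholly in the EGFP-positive libraries. The 7 genes together held at most 0.00293% of all normalised counts in a neg library, 0.220% to 0.350% in sub, 0.672% to 0.833% in low and 0.712% to 0.838% in high. No neg library reached any sub library and no sub library reached any low or high one, whereas low and high overlapped. Per kilobase of the longest coding transcript, which allows levels of different genes to be compared, Spp1 and Clu stood far above the rest in each EGFP-positive population. Their mean levels per kilobase in low were 23345 ± 4913 for Spp1 and 18249 ± 3048 for Clu (SD, n = 3). The other members had mean levels per kilobase in low of 1929 ± 573 for Pigr, 1631 ± 1104 for Lcn2, 1539 ± 170 for Ambp, 528.2 ± 450.2 for Dmbt1 and 33.8 ± 58.5 for Wfdc2. The order of Spp1 and Clu per kilobase was the other way round in sub, at 6625 ± 2164 and 8019 ± 1288, and in high, at 20363 ± 3389 and 21794 ± 1533, and the gap was smaller than the SD of Spp1 in sub and in high and slightly larger than it in low.

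**Figure D1:**
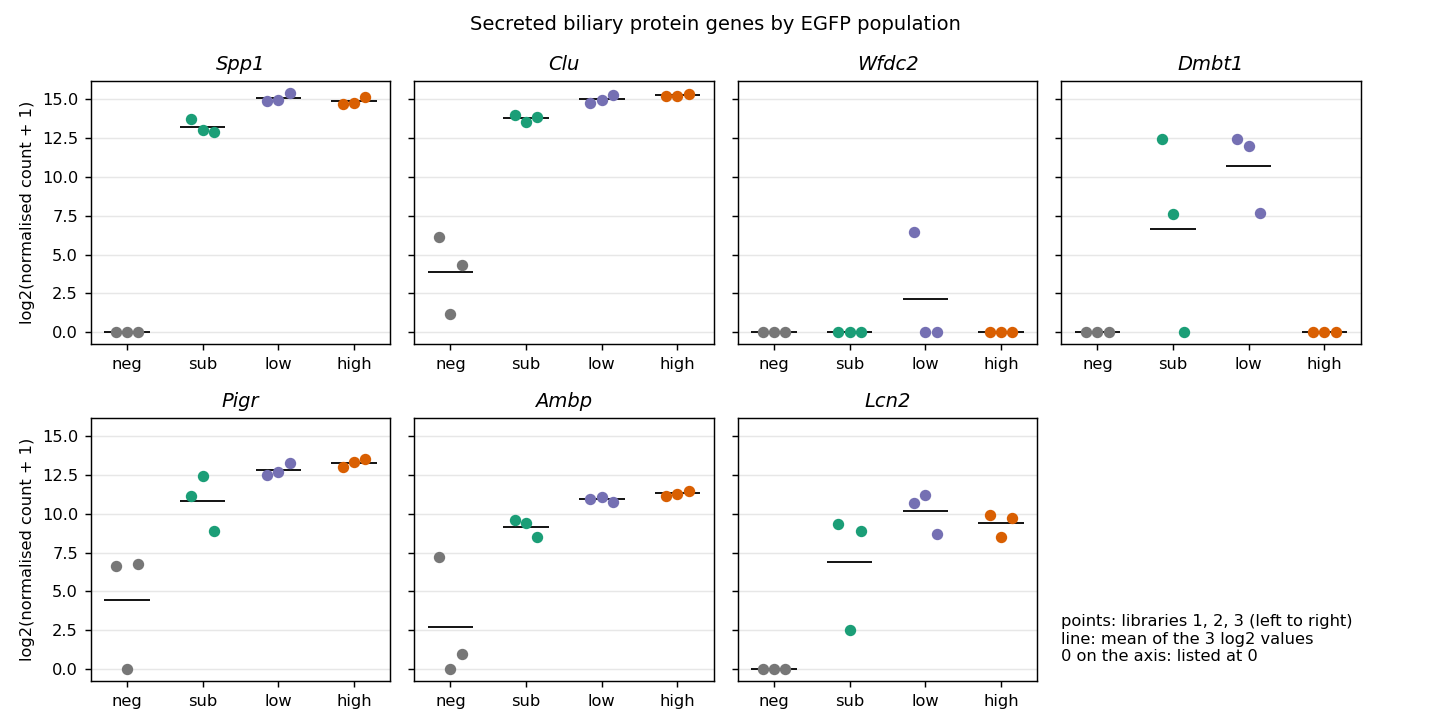
Level of each of the 7 members as log2(normalised count + 1) in the 4 EGFP populations; points are libraries and lines are means of 3 log2 values. Spp1 and Clu sit high and tight in sub, low and high, whereas Dmbt1 is listed at 0 in all 3 high libraries and Wfdc2 is above 0 in 1 library of low.

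Spp1 (ENSMUSG00000029304.14) lies at chr5:104435118-104441050 on the plus strand of mm10 and its longest coding transcript has 6 exons and 1507 bases. Its normalised counts were 0, 0 and 0 in the neg libraries, 13719, 8527 and 7705 in sub, 29882, 32021 and 43641 in low, and 27254, 28249 and 36557 in high. The order of mean levels was low, high, sub and neg; low and high overlapped, and neither overlapped sub. A floor of 3 reads in the neg library with the largest value per read is 3.67 normalised counts. Against this floor the mean level was at least 9589-fold higher in low and at least 8364-fold higher in high. These bounds cover counting error only, not zeros of the kind seen in housekeeping genes. The low minus sub difference was a log2 fold change of 1.84 (95% confidence interval 0.72 to 2.97), with a limma adjusted p of 0.14, and the high minus low difference was -0.19 (-1.31 to 0.93), with a limma adjusted p of 1. The annotated gene Gm42793 overlaps Spp1 on the same strand, so reads could be split between them, and its own values were 0 in neg, 0 to 593.3 in sub, 0.85 to 460.3 in low and 183.8 to 407.3 in high.

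Clu (ENSMUSG00000022037.15) lies at chr14:65968483-65981547 on the plus strand, with 9 exons in its longest coding transcript. It was the member with the steadiest level within high, where its coefficient of variation was 7.03%. Its normalised counts were 70.5, 1.22 and 19.3 in neg, 16471, 11936 and 15138 in sub, 28422, 31526 and 39143 in low, and 37968, 37726 and 42647 in high. The means therefore ran high, low, sub and neg, with overlap between high and low alone. Clu rose from neg to sub by 9.93 ± 0.75 on the log2 scale (SE, limma adjusted p 8.47e-08); this fitted value was 11.06 without neg 1 and 8.56 without neg 2. The call was lost when only neg and sub were fitted (limma adjusted p 0.301). Low minus sub was a log2 fold change of 1.19 (95% confidence interval -0.38 to 2.75) and did not pass the limma test (adjusted p 0.656).

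Pigr (ENSMUSG00000026417.13), at chr1:130826684-130852249 on the plus strand, spread widely among the sub libraries. Its normalised counts were 96.7, 0 and 108.2 in neg, 2244, 5591 and 477.8 in sub, 5703, 6663 and 9909 in low, and 8353, 10120 and 11941 in high. The sub libraries spanned 11.7-fold and stayed below low, by a narrow gap between 5591 and 5703, and low and high overlapped. Pigr rose from neg to sub by 6.37 ± 1.29 on the log2 scale (SE, limma adjusted p 0.0138), and this call was lost without sub 1 (limma adjusted p 0.0935), sub 2 (0.121) or high 3 (0.0535). Other settings that ended it were no filter on low values (0.0960), no variance trend (0.185), the 10 libraries of the count tests (0.182) and a fit of neg and sub alone (0.652). The fitted value was 4.14 without neg 2, the library listed at 0, and 7.52 without neg 3. The ratio of sub to neg means was 40.6. Low minus sub was a log2 fold change of 1.99 (95% confidence interval -0.72 to 4.70) and high minus low was 0.47 (-2.23 to 3.18), neither of which passed (limma adjusted p 0.679 and 1).

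Ambp (ENSMUSG00000028356.4), at chr4:63143275-63154799 on the minus strand, gave 147.2, 0 and 0.97 normalised counts in neg, 765.7, 676.6 and 369.1 in sub, 1961, 2162 and 1731 in low, and 2284, 2479 and 2862 in high. It was the member whose populations were fully ordered: every library of neg lay below every library of sub, sub below low, and low below high. Taken singly, these steps were without overlap in 4.69%, 5.75% and 4.06% of all tested genes. The share of tested genes with the full order was not counted, so the order is not read as particular to Ambp. The tests separated fewer of these steps. Ambp rose from neg to sub by 6.44 ± 1.55 on the log2 scale (SE, limma adjusted p 0.0464), whereas low minus sub, at 1.75 ± 1.55, and high minus low, at 0.38 ± 1.55, did not pass (limma adjusted p 0.737 and 1). The call against neg was fragile: it was lost without any single library other than neg 1, with limma adjusted p values from 0.0901 to 0.154. It was also lost with a pseudocount of 0.5 (0.0554), no filter (0.0964), no variance trend (0.142), the 10 libraries of the count tests (0.256 in limma, 0.0585 in edgeR) and a fit of neg and sub alone (0.652). Neg 1 alone carried nearly all Ambp reads of that population; the fitted rise was 8.69 without it and 5.08 without neg 2. The ratio of sub to neg means was smaller, at 12.2, and the log2 fold change in edgeR on 10 libraries was 3.85.

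The summed level of hepatocyte markers was higher where Ambp was. Over 15 genes their summed normalised count lay between 664.5 and 1485 in neg. It lay between 7171 and 11488 in sub, between 15130 and 23264 in low, and between 19110 and 23408 in high. Apoa2, Fabp1 and Cyp3a11, which hepatocytes express strongly, were listed at 0 in all 12 libraries, while Alb, the gene of serum albumin, had 301.2, 0 and 183.5 in neg and 10123, 13041 and 12616 in high. Alb and Ahsg, the fetuin A gene with 5018, 5118 and 5667 in high, made up most of the sum there. Of 12 markers tested, 7 were higher and 4 lower in high than in neg, and 5 passed in limma, all higher, where 4.69% of all tested genes passed in either direction. The part of these transcripts in the Ambp level was not tested. In sorted bulk libraries, fewer cells that express a gene and less RNA of it per cell cannot be told apart.

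Lcn2 (ENSMUSG00000026822.14), at chr2:32384633-32388252 on the minus strand, was listed at 0 in the 3 neg libraries and present in all 9 others. Its normalised counts were 644.8, 4.58 and 463.8 in sub, 1663, 2406 and 408.5 in low, and 951.9, 367.9 and 857.6 in high. Sub 2 held only 4 reads, and the 3 EGFP-positive populations overlapped one another. Against the floor in neg of 3.67, the mean level was at least 101.1-fold higher in sub, at least 406.8-fold higher in low and at least 197.8-fold higher in high. These bounds are for means and cover counting error only, and sub 2, at 4.58, was itself close to the floor. Without sub 1 the bound in sub was 63.8-fold. The difference between sub and neg did not pass in limma (adjusted p 0.165), but did without sub 2 (adjusted p 0.0212) and on reads in edgeR (adjusted p 0.000239) and DESeq2 (adjusted p 3.57e-06). Lcn2 rose from neg to high by 9.39 ± 2.09 on the log2 scale (SE, limma adjusted p 0.0114), a call lost without high 1 (limma adjusted p 0.0639), without high 3 (0.0594) or in a fit of neg and high alone (0.0502).

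Dmbt1 (ENSMUSG00000047517.11), at chr7:131032053-131121630 on the plus strand, was the tested member listed at 0 in all 3 high libraries. Its normalised counts were 0, 0 and 0 in neg, 5545, 192.3 and 0 in sub, 5718, 4017 and 203.8 in low, and 0, 0 and 0 in high. High and low did not overlap, whereas sub covered nearly the whole range by itself. The fitted high minus low difference was -10.71 ± 2.86 on the log2 scale (SE), and its p of 0.0014 in limma before adjustment became 0.727 after it. For this and any other gene listed at 0 throughout a population, the fitted value depends on the pseudocount and is no bound. The same difference passed on the recovered reads of 10 libraries in edgeR (adjusted p 1.3e-10) and DESeq2 (adjusted p 5.67e-08). Since genes used by every cell are also listed at 0 in single libraries, no ratio of means is given for high; 12 of the 16128 tested genes were at 0 in all high libraries and above 100 in all low ones, and 17 showed the reverse.

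Dmbt1 rose from neg to low by 10.71 ± 2.86 on the log2 scale (SE, limma adjusted p 0.0365). That call was lost when any single library of neg, low or high was left out, with limma adjusted p values from 0.0515 to 0.122, and also with no filter (0.0801) or a fit of neg and low alone (0.0719). For sub against neg, Dmbt1 did not pass in limma but passed on reads in edgeR (adjusted p 2.93e-16) and DESeq2 (adjusted p 1.03e-08), tests that leave out sub 3, the sub library in which it was listed at 0. The gene lies within the span of Fgfr2, a growth factor receptor gene on the opposite strand. Fgfr2 was 176.3 to 2137 in sub, 1860 to 3218 in low and 1789 to 2544 in high, and so was present in the high libraries in which Dmbt1 was listed at 0. Whether reads of Dmbt1 were assigned to another gene in the high libraries was not tested.

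Wfdc2 (ENSMUSG00000017723.11), at chr2:164562413-164568510 on the plus strand, was listed at 0 in 11 libraries and at 86.1 normalised counts in low 1. A count of 0 allows a level of up to 3 reads in a library, counting error only. Low 1 had 12687 genes above 0, against 9217 and 9428 in the other low libraries, and Wfdc18 (107.6) and Wfdc3 (78.7) of the same domain family were also above 0 there alone. Its longest coding transcript is short, at 849 bases, and 72.7% of protein-coding genes under 1000 bases were listed at 0 in all 12 libraries, against 12.5% of those of at least 4000 bases. Lcn2, at 915 bases, falls in the same length class and was detected. Of 8 genes for small inhibitors of the same domain family as Wfdc2, 4 were listed at 0 in every library and 1 reached the test, where it passed in none of the 6 comparisons.

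Against neg, 4 of the 6 tested members were higher in sub and passed in limma at an adjusted p of 0.05, Spp1, Clu, Pigr and Ambp, as did 1.04% of all tested genes; when only these populations were fitted, none of the 4 passed (limma adjusted p 0.0746 for Spp1). In low all 6 tested members were higher and passed, as did 2.55% of tested genes, and in high 5 did, all but Dmbt1, as did 2.44% of tested genes. Fits of the compared populations alone left 2 in low and 2 in high, Spp1 and Clu each time. These 3 comparisons share the neg libraries, so their counts do not stand apart from one another. Every sub library lay above every neg library for 5 of 6 members, all but Dmbt1, and for 4.69% of tested genes. From neg to low, the fitted rise was 15.08 ± 0.54 on the log2 scale for Spp1 (SE, limma adjusted p 5.57e-13) and 11.11 ± 0.75 for Clu (limma adjusted p 9.77e-09). These fitted values are not ranked across members, since several members were listed at 0 throughout neg.

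Between EGFP-positive populations, no member passed. For low against sub that was 0 of 6 where 0.744% of tested genes passed, for high against sub 0 of 6 where 0.986% passed, and for high against low 0 of 6 where 0% passed in limma and 4.24% had an unadjusted p under 0.05. At an unadjusted p under 0.05 in limma there were 1, 2 and 1 members in these comparisons, where 10.2% of tested genes had such a p for low against sub and 10.2% for high against sub. The count tests on reads passed 2, 3 and 1 members in edgeR and 0, 1 and 1 in DESeq2. Over all genes edgeR passed 271, 269 and 74 in these comparisons and DESeq2 1499, 1506 and 678. All 6 members had a higher mean in low than in sub, where 7955 of 16128 tested genes had a higher fitted level, and 4, Spp1, Clu, Pigr and Ambp, did so with no overlap between libraries, as did 5.75% of tested genes. Summed normalised counts of 10 endothelial markers were 40637 to 52945 in sub and 1008 to 2699 in low. Those of 10 stellate or mesenchymal markers were 26880 to 37030 in sub and 857.3 to 2788 in low. Whether these cell types had a part in the member differences was not tested. High and low did not overlap for Ambp, higher in high, and Dmbt1, higher in low, against 7.34% of tested genes in either direction. The ratio of low to sub means was 4.02 for Lcn2, 3.52 for Spp1, 3.23 for Ambp, 2.68 for Pigr, 2.28 for Clu and 1.73 for Dmbt1. Single libraries set several of these values, so their order is not read: without sub 1 the ratio was 34.4 for Dmbt1 and 6.37 for Lcn2, and without sub 2 it was 5.46 for Pigr and 2.69 for Lcn2. With each library of low or sub left out in turn, it was 1.10 to 34.4 for Dmbt1, 2.69 to 6.37 for Lcn2, 1.90 to 5.46 for Pigr, 2.71 to 3.73 for Ambp, 3.10 to 4.33 for Spp1 and 2.07 to 2.44 for Clu. Over 11 biliary marker genes the median of that ratio was 2.49, with 10 above 1; the exception was Aqp1, a water channel that endothelium also carries, which went from 8615 in neg to 41.6 in low. The difference in ratio between members and markers was not tested.

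**Figure D2:**
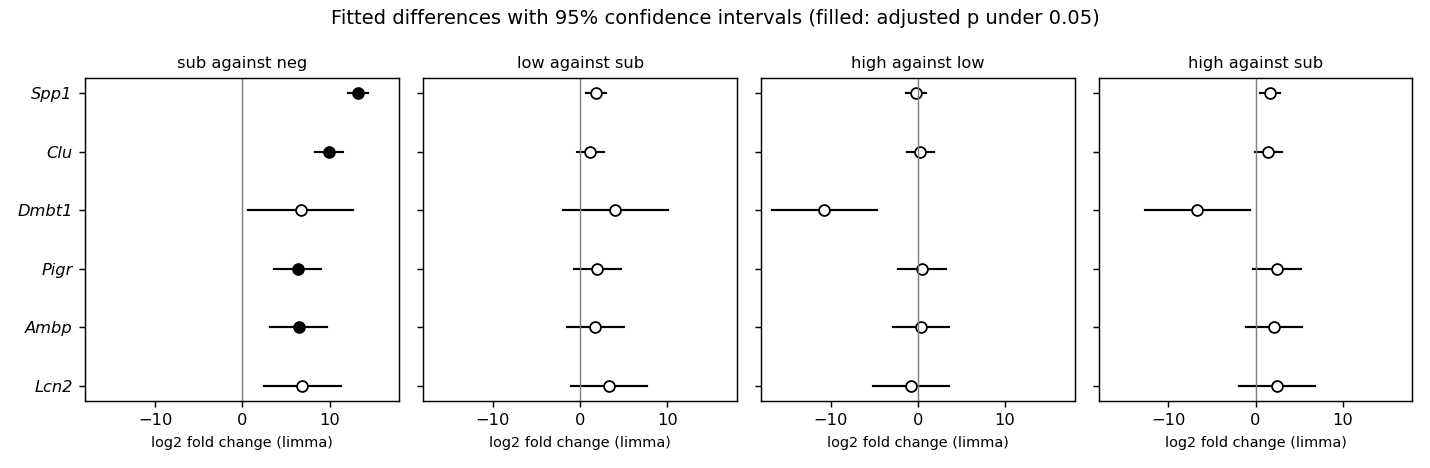
Log2 fold change from limma with its 95% confidence interval for the 6 tested members in 4 comparisons, filled where the adjusted p is under 0.05. Filled points are found in sub against neg alone, and the interval of Dmbt1 is the one that lies below 0 in high against low.

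Spp1 passed for low against sub when any neg library was left out (limma adjusted p 0.0327 to 0.0415) and in edgeR on reads (adjusted p 9.24e-07), where Clu also passed (adjusted p 0.000392). Leaving out a neg library also let Spp1 pass for high against sub (limma adjusted p 0.0417 to 0.0497). The fitted difference was the same 1.84 or 1.65 in these limma fits, since neg does not enter it, so the estimate of spread and the set of genes tested are what changed.

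Ratios between members within a library do not depend on the library's scaling factor. The ratio of Spp1 to Clu normalised counts was 0.833, 0.714 and 0.509 in sub, 1.05, 1.02 and 1.11 in low, and 0.718, 0.749 and 0.857 in high. Low lay above both other populations without overlap. The ratio of Pigr to Spp1 was 0.191, 0.208 and 0.227 in low and 0.306, 0.358 and 0.327 in high, again without overlap, but ranged from 0.062 to 0.656 in sub. The ratio of Ambp to Spp1 was 0.0656, 0.0675 and 0.0397 in low and 0.0838, 0.0878 and 0.0783 in high, without overlap. With Clu in place of Spp1, low and high overlapped. The mean ratio of Pigr to Clu was 0.222 in low and 0.256 in high, and that of Ambp to Clu was 0.0606 and 0.0643. Ambp to Clu was higher in high than in sub without overlap. The ratio of Lcn2 to Spp1 overlapped between all populations compared. These ratios were chosen after the levels had been seen; 6 ratios were each compared between 3 pairs of populations, 18 tests in all, by a two-sided exact permutation test, for which 0.1 is the smallest p that 3 against 3 libraries can give, and each of the differences without overlap had that p (adjusted 0.36).

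**Figure D3:**
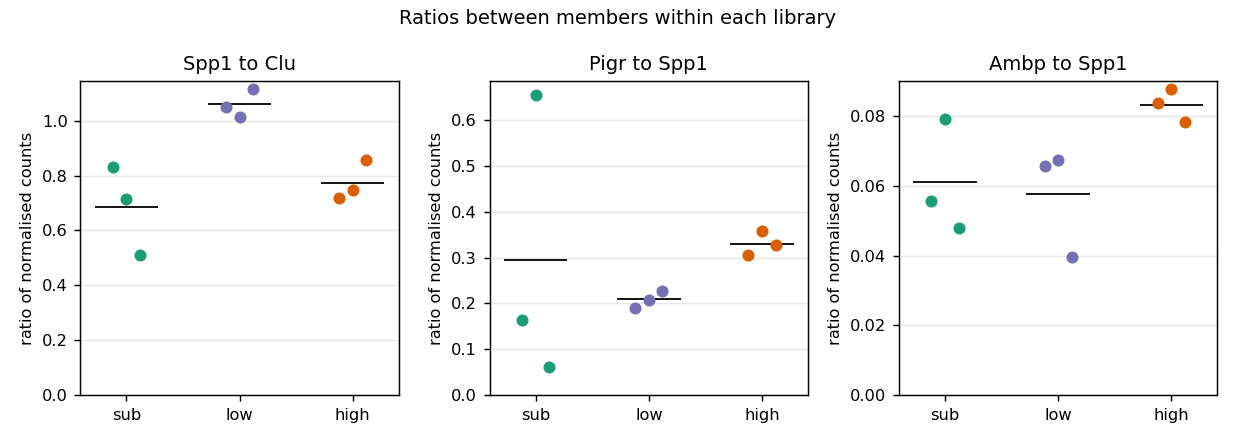
Ratio of normalised counts of 2 members within each library of sub, low and high, with the mean of 3 libraries as a line. The Spp1 to Clu ratio is highest in low, at 1.02 to 1.11, and the Pigr to Spp1 ratio is higher in high than in low in every library.

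Genes that act on the members were described by list; over all tested genes, 1.19% passed in either direction in sub against neg, 4.69% in low against neg and 4.69% in high against neg. Of 9 genes for osteopontin receptors, all were tested and 1 passed in any comparison with neg: Itgav, the integrin alpha V subunit, had 627.3, 492.9 and 632.6 normalised counts in neg and 3499, 4767 and 2431 in low, and rose by 2.56 ± 0.59 on the log2 scale (SE, limma adjusted p 0.0145). The receptor list had a median log2 fold change of 0.52 in low against neg, where the median over all tested genes was 0. Cd44, the receptor outside the integrin family, had 1705, 2085 and 1239 in low and 734.7, 139.5 and 229.5 in high and passed in no comparison. Of 9 tested genes for processing of osteopontin, 1 passed in high against neg, Fam20c, the kinase that phosphorylates secreted proteins; its normalised counts were 0.69, 0 and 239.5 in neg and 1513, 1415 and 1549 in high (log2 fold change 7.65 ± 1.94, SE, limma adjusted p 0.0268).

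Bikunin, a product of Ambp, is joined to heavy chains such as the product of Itih2. Of 6 genes, the Itih family and Tnfaip6, which encodes a partner that helps to transfer heavy chains, 5 were tested, and Itih2 and Itih5 passed in low and in high against neg. Itih2 had 0, 606.6 and 0 normalised counts in neg, 1423, 1287 and 1364 in sub, 2134, 4195 and 2730 in low, and 4155, 6094 and 4528 in high. Its rise from neg to high was 9.16 ± 1.68 on the log2 scale (SE, limma adjusted p 0.00235), and it also passed in sub (limma adjusted p 0.0341). Itih5, a family member not taken here as a chain joined to bikunin, had 63.6, 442.7 and 0 in neg and 3620, 4573 and 3890 in high, a rise of 7.03 ± 1.44 (SE, limma adjusted p 0.00637). The other 3 tested genes of the list passed in no comparison.

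Of 9 genes for ligands and transport of the Pigr product, 7 were tested. Myo5b, a motor of apical recycling endosomes, had 0, 0 and 251.1 normalised counts in neg, 3138, 455.7 and 1680 in sub, and 2273, 3140 and 4677 in low. It rose from neg to sub by 7.73 ± 1.63 on the log2 scale (SE, limma adjusted p 0.0185) and passed in low and high as well. Rab27a, a GTPase of secretory vesicles, moved the other way: it had 1508, 1579 and 740.8 in neg and 0 in each high library, a log2 fold change of -10.24 ± 2.81 (SE, limma adjusted p 0.0416). Among the ligand genes, Ighm, for the heavy chain of IgM, was listed at 0 in all 12 libraries. Igha, for the heavy chain of IgA, had 13.5 in neg 2 and 303.0 in high 3, and Jchain, which joins polymeric immunoglobulins, had 273.7 in low 3; both were listed at 0 in the other libraries.

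Of 7 genes for receptors of clusterin or lipocalin 2, 5 were tested and Lrp1, a large endocytic receptor, passed; it fell by 3.01 ± 0.32 on the log2 scale from sub to low (SE, limma adjusted p 0.000145), with 12055, 10163 and 10797 normalised counts in neg, 14199, 14008 and 23175 in sub and 2508, 1268 and 2748 in low. Its neg libraries lay below its sub libraries. Of 12 genes for inflammatory receptors, all tested, Il6st, the signalling receptor subunit for interleukin 6, passed and fell by 2.86 ± 0.29 from neg to low (SE, limma adjusted p 2.55e-06), with 24770, 26138 and 21231 in neg and 3490, 2896 and 3569 in low. Beside both, 10 endothelial markers summed to 146907 to 208731 normalised counts in neg, 40637 to 52945 in sub and 1008 to 2699 in low. Stellate or mesenchymal markers, also 10, summed to 26880 to 37030 in sub and 857.3 to 2788 in low. The part of these cell types in the differences was not tested.

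Of 22 acute phase genes and genes that respond to NF-kB or STAT3, a group that often includes Lcn2, 14 were tested. In high against neg 8 of these were higher and 6 lower, and in limma 2 passed as higher and 2 as lower. The median log2 fold change was 0.24, where that over all tested genes was 0.13 and 4.69% of them passed in either direction. Cp, the ferroxidase ceruloplasmin, had 1358, 0 and 402.7 normalised counts in neg, 9913, 5491 and 9420 in sub, 15709, 18600 and 15485 in low, and 20849, 23380 and 25246 in high, and rose from neg to high by 8.14 ± 1.52 on the log2 scale (SE, limma adjusted p 0.00281). Nfkbiz, an NF-kB cofactor, rose by 1.17 ± 0.30 (SE, limma adjusted p 0.0259). Serpina3n, a protease inhibitor of the acute phase, fell by 9.06 ± 2.33 (SE, limma adjusted p 0.0293) and was listed at 0 in all low and high libraries, and Lbp, which binds bacterial lipopolysaccharide, fell by 6.90 ± 1.62 (SE, limma adjusted p 0.0161).

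Saa1, Saa2, Hp, Orm1 and Orm2, classical acute phase genes of the liver, were listed at 0 in all 12 libraries. Since such zeros were common among short genes, they are not read as absence, here or for the other lists. Neutrophils also make Lcn2, and 6 of 10 neutrophil markers were listed at 0 in all 12 libraries, S100a9, Camp, Ngp, Elane, Mpo and Retnlg. The summed normalised count of the list was 35.2 to 1073 in neg, where Lcn2 was listed at 0, and 80.1 to 358.1 in sub. It was 0 to 33.1 in low, where Lcn2 had 408.5 to 2406, and 31.9 to 368.9 in high. High 2 held that highest value, from Csf3r (124.3) and Cxcr2 (244.6), receptors of neutrophils, beside 367.9 for Lcn2. The part of neutrophils in the Lcn2 level was not tested. Of 6 genes for chaperones outside or along the secretory route, Clu among them, Apoe, the apolipoprotein E gene, rose from neg to high by 0.78 ± 0.16 on the log2 scale (SE, limma adjusted p 0.00648), with 13912, 12389 and 9118 in neg and 20253, 21133 and 18558 in high. Of 20 other secreted products of mucosal and ductal epithelium, 12 were listed at 0 in every library and none of the 6 tested passed in limma in any comparison with neg.

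Among the osteopontin, lipocalin and scavenger receptor cysteine-rich families, the genes that passed in limma were members themselves. The other genes tested in these 3 families numbered 9. That is too few to read their count against the 4.69% of all tested genes that passed in low against neg. Of the 5 genes of the osteopontin family, Ibsp, Dspp and Mepe were listed at 0 in all 12 libraries and Spp1 was the single one to pass. Of 10 lipocalin genes, 5 were listed at 0 throughout, and of the 4 tested Lcn2 and Ambp passed in low and in high against neg. Of 11 genes with scavenger receptor cysteine-rich domains, 7 were tested and Dmbt1 alone passed against neg, in low.

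**Figure D4:**
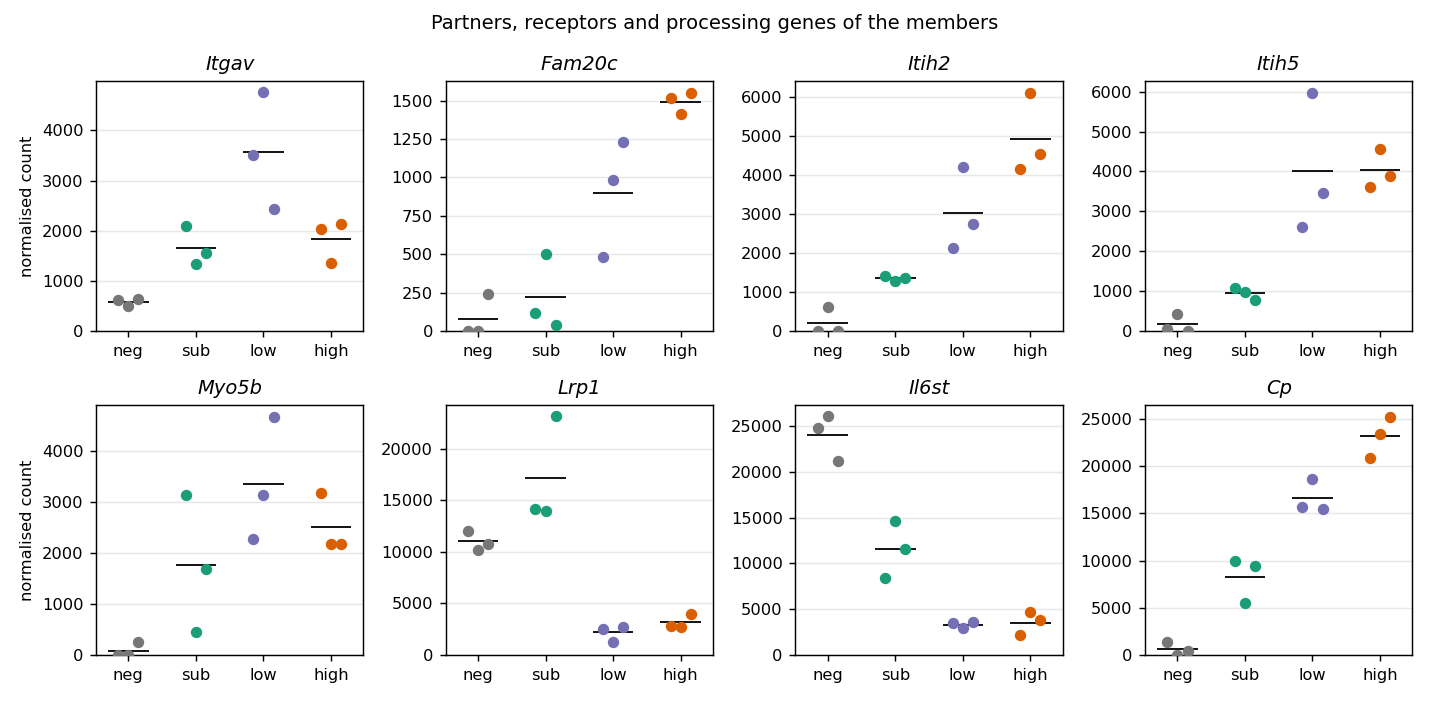
Normalised counts of 8 genes that act with the members or near them in the 4 EGFP populations; points are libraries, lines are means of 3, and each panel has its own axis from 0. Itih2, Fam20c and Cp have their highest means in high, whereas Lrp1 and Il6st are lowest in low and high.

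The genes with the most similar profile were found over all 12 libraries by Pearson's r of log2(normalised count + 1) among 9613 genes with a mean of at least 100; the jump from neg and the shared libraries set much of these values. For Spp1 they were Scara3 (r = 0.999), Sox9, Ptprf, Mtcl1 and Wwc1, and for Clu the mitochondrial ribosomal RNA mt-Rnr2 (r = 0.987), Thsd4, Sox9, Shank2 and Ahsg. For Ambp they were Cyp51, an enzyme of cholesterol synthesis (r = 0.995), Krt18, Apob, Sgms2 and Shank2, and for Pigr Cxadr, a receptor at tight junctions (r = 0.983), Fgfr3, Dsp and mt-Nd5. Lcn2 was closest to Rab11fip4 (r = 0.982), Spint1, Mbp, Arhgef26 and Habp2. Dmbt1 had no near match, with Gmppa as the closest at r = 0.866, and its r with the other 5 tested members ranged from 0.398 to 0.470, where those 5 had 0.765 to 0.976 with each other.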

How the data were processed

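The values deposited by the authors are a signal, normalised counts for each gene in each library, in 1 table. Per the submitters' processing notes, Salmon, DESeq2 1.26.0 and the build mm10 were used; the Salmon version, annotation and strand setting are not given in the sources used here. In every library 100% of values were whole multiples of the smallest value (tolerance 0.001), which gave back reads. Values were tested as log2(normalised count + 1) with limma 3.58.1 in R 4.3.3 (variance trend, two-sided, 12 libraries, population as the only term) for genes with a mean of at least 10, with Benjamini-Hochberg adjustment over 16128 genes at 0.05. Near 0 such fold changes depend on the pseudocount and can differ widely from ratios of means. Reads of 10 libraries were tested by the quasi-likelihood method of edgeR 4.0.16 and by DESeq2 1.42.0; sub 3 and high 2, where 1 read is worth about 1, were left out. Limits based on reads cover counting error only. On data simulated for low against sub, with 200 of 16128 genes changed 4-fold, limma recovered 98%, edgeR 88% and DESeq2 95.5%. Of their calls, 4.85%, 3.30% and 12.8% were false. The simulated counts had the same dispersion for every gene and no added zeros, and the changed genes had a mean of at least 100. The real libraries held many more zeros, so these shares do not measure the power behind the member results.

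The members, the gene lists and the tests were chosen with earlier results of these data known. From each list, the genes named were those past the threshold in a neg comparison or in low against sub, at most 4 per list by mean level; Cd44, Alb and the cell type markers named beside a result were chosen after their values were seen. For each member with a mean of at least 100, up to 5 genes of most similar profile were named; 1 such gene is not reported here. Gene positions are from GENCODE M21 on mm10. Same-numbered libraries were not treated as pairs in the main fit. Over 18 such pairs the correlation of deviations from population means was -0.0161 to 0.0266 (median 0.0114), none over 0.1. Over 36 pairs with different numbers the median was -0.00364. Since 10 of 12 libraries correlated best with a library of their own number, these small correlations do not show that pairing is absent. Alternatives were other pseudocounts (0.5 and 5), filters and scalings, the replicate block, no variance trend, a fit of only the populations compared, and each library left out in turn with the filter applied again.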

Additional observations from a re-analysis of the deposited data

How the results depend on the processing

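Over 24 alternatives, 858 refitted values of the 36 member differences were obtained; 793 kept direction and side of the threshold, 46 lost a call, 19 gained one and 0 reversed. DESeq2 gave no adjusted p for Ambp in any comparison. Pairing by replicate number, as a replicate block, moved no count of members passing: it stayed at 4, 0, 0, 6, 5 and 0 for sub against neg, low against sub, high against low, low against neg, high against neg and high against sub, and 10 of 12 libraries correlated best with a library of their own number. For sub against neg, 4 members became 2 without a filter, without the variance trend and in limma on 10 libraries (an alternative chosen after the data were seen), and 0 when only the populations compared were fitted; without single libraries the count was 2 to 4. It was 3 with a pseudocount of 0.5 and 5 in both edgeR and DESeq2, where Dmbt1 and Lcn2 were gained. Over all genes, 192 passed for sub against neg in the main fit, 255 in edgeR and 1645 in DESeq2. The fit of 2 populations also took low against neg from 6 to 2 and high against neg from 5 to 2. Without single libraries those counts were 5 to 6 and 4 to 5. In edgeR the count was 2 for low against sub, 3 for high against sub and 1 for high against low; in DESeq2 it was 1 for high against sub and 1 for high against low. Without single libraries these counts were 0 to 1 for low against sub, 0 to 1 for high against sub and 0 for high against low. The cause was not tested beyond the smaller number of libraries in the fits of 2 populations. With 3 libraries each, the confidence intervals of Ambp, Pigr, Lcn2 and Dmbt1 between EGFP-positive populations span several log2 units.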

Other observations

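The summed normalised count of 10 macrophage markers was 0 to 1007 in neg, 490.0 to 587.4 in sub, 742.9 to 1220 in low and 518.6 to 1526 in high, and in low and high most of it came from Csf1r, the receptor for macrophage colony-stimulating factor, with 945.8, 722.6 and 518.6 in high and 670.2, 814.0 and 1133 in low. Csf1r was listed at 0 in all neg libraries and rose from neg to low by 9.74 ± 2.28 on the log2 scale (SE, limma adjusted p 0.0162), whereas C1qa, a complement gene of macrophages, was listed at 0 in all 12 libraries. Of the 5 markers tested, 2 were higher and 2 lower in low than in neg, with a median log2 fold change of 0, and Csf1r was the one that passed. Cd68, a lysosomal protein of macrophages, had 532.7, 0 and 62.8 in neg and 72.7, 0 and 0 in low.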
